A study of Mus musculus with 6 samples.

Results

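The genes described here are 10 markers of dentate granule cells, the principal neurons of the dentate gyrus, measured in bulk RNA of the mouse hippocampus: Prox1, C1ql2, Dsp, Calb1, Trpc6, Glis3, Tdo2, Pdzd2, Stxbp6 and Lct. They were chosen by name, as rows whose gene symbol equals one of the 10, out of 24346 symbols in each table. All 10 had a row, and all 10 passed the filter on low values described below. The samples were 6 hippocampus libraries from 12-month-old mice on a C57BL/6 background. The wild-type group (TonEBP+/+) and the TonEBP+/- group hold 3 libraries each, called WT 1 to WT 3 and HET 1 to HET 3. TonEBP (tonicity-responsive enhancer binding protein) stands for the product of Nfat5, a relative of the NFAT and Rel transcription factors. Both groups were littermates from crosses between heterozygotes, after 5 to 6 generations of backcrossing, received no treatment that the labels name, and differ by 1 copy of that gene. Neither the disrupted stretch of Nfat5 nor the number of mice behind a library is stated in the labels. The p-values below therefore measure the spread between these libraries, which may be technical in part.

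Granule cells receive input from the entorhinal cortex and send mossy fibres, axons with very large synaptic boutons, to hilar neurons and CA3 pyramidal cells. Their identity depends on the homeobox factor Prox1, and mature granule cells hold much of the calcium-binding protein calbindin. Neurons are added to this layer after birth, at a rate that falls with age. None of the 10 genes belongs to granule cells alone: calbindin also marks some CA1 pyramidal cells and interneurons, and Prox1 is made by a class of interneurons as well. In a bulk sample, fewer granule cells and less RNA per granule cell cannot be told apart.

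The level of a gene is given in FPKM, a length-corrected and depth-scaled fragment number, which is how the deposited log2 values behaved once the logarithm and the added 1 were removed. The unit was read from the values, since no label names it. Depth was estimated from the spacing of low values, and came to 7910000 fragments in HET 1, the shallowest library, and 12700000 in HET 3, the deepest. The log2 differences below are on the scale of the files, log2(FPKM + 1), which understates the difference of a low gene. Nfat5 itself was at 8.39 to 10.5 FPKM in wild type and at 8.25 to 9.31 FPKM in the libraries labelled TonEBP+/-. Its whole-gene value overlapped between groups and did not check the labels. In limma, 0 of the 13122 genes tested passed an adjusted p of 0.05, which is 0% of them, and 484 (3.69%) had an unadjusted p under 0.05.

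The 10 genes covered a wide range of levels. Averaged over the 6 libraries, Calb1 was at 41.4 FPKM, Stxbp6 at 30.8, Trpc6 at 22.6, C1ql2 at 14.9 and Prox1 at 13.2. Tdo2 was at 5.33 FPKM, Glis3 at 4.89, Lct at 4.54, Pdzd2 at 2.48 and Dsp at 2.01. In this order the ranges over 6 libraries overlapped between C1ql2 and Prox1, between Tdo2 and Glis3, and between Glis3 and Lct, while the other 6 pairs of neighbours did not overlap. C1ql2 was above Prox1 within each of the 6 libraries, whereas Tdo2 was above Glis3 in 4 of 6 and Glis3 above Lct in 4 of 6. The lowest estimated number of fragments behind a value was 100.3, for Tdo2 in HET 2, and the highest was 2120, for Calb1 in HET 3.

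**Figure D1:**
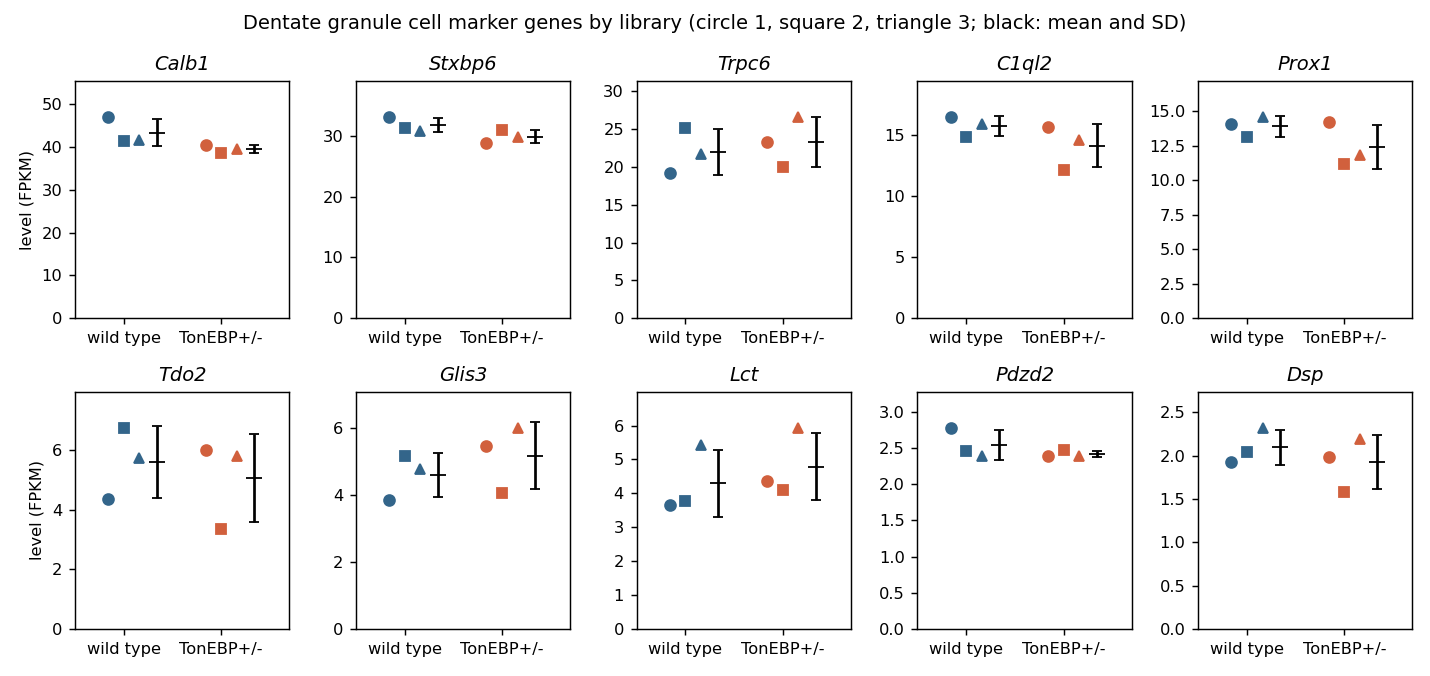
Level in FPKM (vertical axes, from 0) of the 10 marker genes in 3 wild-type libraries (blue) and 3 TonEBP+/- libraries (orange), 1 panel a gene in order of level; symbols give the library number and the black bar the mean and SD. Calb1 is the 1 gene in which the groups do not overlap, and HET 2 (orange square) is the lowest point for 5 genes.

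The start sites of 4 members are printed because they include the identity factor Prox1, the mossy fibre gene C1ql2 and the members with the most and the least spread between libraries (Tdo2 and Stxbp6). Each run holds 250 bases before and 50 after an annotated start, on the strand of the gene, from RefSeq on GRCm38.p6, which is the assembly that mm10 names. Capitals mark GGAAA or its reverse complement TTTCC, the core that NFAT and Rel family factors share. The windows are chr1:190170778-190171077 (minus strand, Prox1), chr1:120340332-120340631 (plus strand, C1ql2), chr3:81975679-81975978 (minus strand, Tdo2) and chr12:45074434-45074733 (minus strand, Stxbp6).
Prox1: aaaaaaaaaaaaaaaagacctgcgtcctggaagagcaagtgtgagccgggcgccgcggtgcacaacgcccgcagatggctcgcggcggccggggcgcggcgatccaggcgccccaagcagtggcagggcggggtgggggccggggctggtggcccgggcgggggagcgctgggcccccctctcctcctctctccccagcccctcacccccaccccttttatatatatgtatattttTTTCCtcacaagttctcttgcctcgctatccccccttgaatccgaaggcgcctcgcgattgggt
C1ql2: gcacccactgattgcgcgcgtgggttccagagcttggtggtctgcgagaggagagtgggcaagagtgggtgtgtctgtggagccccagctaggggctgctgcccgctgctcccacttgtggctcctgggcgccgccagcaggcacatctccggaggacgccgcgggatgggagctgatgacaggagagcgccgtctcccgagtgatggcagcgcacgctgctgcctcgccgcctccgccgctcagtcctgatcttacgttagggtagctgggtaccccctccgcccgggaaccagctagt
Tdo2: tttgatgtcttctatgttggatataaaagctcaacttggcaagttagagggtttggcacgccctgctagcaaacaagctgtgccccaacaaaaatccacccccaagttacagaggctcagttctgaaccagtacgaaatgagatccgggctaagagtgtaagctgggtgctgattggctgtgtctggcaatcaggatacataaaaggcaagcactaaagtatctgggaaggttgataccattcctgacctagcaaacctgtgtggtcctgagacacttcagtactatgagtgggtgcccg
Stxbp6: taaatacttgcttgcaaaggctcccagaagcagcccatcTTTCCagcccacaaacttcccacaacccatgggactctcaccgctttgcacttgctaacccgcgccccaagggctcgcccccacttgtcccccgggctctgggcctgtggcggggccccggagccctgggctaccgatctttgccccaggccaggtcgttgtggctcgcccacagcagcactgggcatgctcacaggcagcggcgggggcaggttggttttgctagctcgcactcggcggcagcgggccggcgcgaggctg

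The promoter table matched 9 of the 10 members with 10 windows (Prox1 has a pair), and Calb1 was not matched. GGAAA on either strand was found in 7 of the 10 windows, against 61.3% of all 32851 windows of that length. TGGAAA on either strand, the opening letters of the tonicity-responsive enhancer and an extension of GGAAA, was found in 1 of the 10 windows, that of Stxbp6, against 21.4% of all windows. The windows also differed in CpG content. The observed-to-expected CpG ratio was 0.807 in the printed Prox1 window, 0.679 in that of C1ql2 and 0.582 in that of Stxbp6, against a median of 0.384 over all windows. It was 0.236 in the Tdo2 window and 0.0678 in that of Lct, the only members below that median. These are letters in a window and not measured binding.

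The regulator of granule cell identity was described first. Prox1 (chromosome 1, 190118035 to 190170827, GRCm38) encodes a homeobox factor that granule cells need to form and to keep their fate. It was at 14.0, 13.1 and 14.6 FPKM in WT 1 to WT 3 and at 14.2, 11.2 and 11.8 FPKM in HET 1 to HET 3. HET 2 and HET 3 lay below all wild-type libraries, but HET 1 lay inside the wild-type range, so the groups overlapped. The wild-type mean was 13.9 ± 0.740 FPKM and the HET mean 12.4 ± 1.60 FPKM (SD, n = 3 each). On the log2 scale they differed by -0.16 (SE 0.0958, 95% interval -0.37 to 0.06, limma adjusted p = 1.00). This difference was -0.09 without HET 2 and -0.25 without HET 1. Exons of Prox1os, an antisense RNA gene, overlap those of Prox1, and no source used here names the program that made the values, so whether strand was used in counting is unknown.

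Genes of cell contact and of the mossy fibre synapse followed. C1ql2 (chromosome 1, 120340582 to 120343174) encodes a secreted C1q-like protein that mossy fibres release and that gathers kainate receptors at their synapses. It was at 16.5, 14.8 and 15.9 FPKM in WT 1 to WT 3 and at 15.7, 12.2 and 14.6 FPKM in HET 1 to HET 3. As for Prox1, HET 2 and HET 3 were below the wild-type range and HET 1 was within it. The log2 difference was -0.15 (SE 0.0964, 95% interval -0.36 to 0.07), with an adjusted p of 1.00 in limma. Without HET 2 it was -0.05. Dsp (chromosome 13, 38151294 to 38198577) encodes desmoplakin, a plaque protein of desmosomes that is also a standard marker of the granule cell layer. Its levels were 1.93, 2.04 and 2.32 FPKM in WT 1 to WT 3 and 1.99, 1.59 and 2.20 FPKM in HET 1 to HET 3. HET 1 and HET 3 were within the wild-type range and HET 2 below it. The log2 difference of -0.09 (SE 0.124, 95% interval -0.36 to 0.19) became -0.0010 without HET 2, -0.04 without WT 3 and -0.15 without HET 3. Exons of Gm10129 lie antisense to those of Dsp.

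Calcium handling was represented by a buffer and a channel. Calb1 (chromosome 4, 15881264 to 15906709) encodes calbindin, a calcium buffer of mature granule cells. Its levels were 46.9, 41.4 and 41.6 FPKM in WT 1 to WT 3 and 40.4, 38.5 and 39.5 FPKM in HET 1 to HET 3. All 3 HET libraries lay below all 3 wild-type libraries, the nearest pair being WT 2 and HET 1. The means were 43.3 ± 3.16 and 39.5 ± 0.963 FPKM (SD, n = 3 each), for a ratio of 0.912 and -0.13 in log2 terms (SE 0.0716, 95% interval -0.29 to 0.03). It did not pass limma (adjusted p = 1.00), and without WT 1 the log2 difference was -0.07. By exact permutation of the 6 libraries, two-sided, p was 0.1, which is the lowest value this design can reach. Trpc6 (chromosome 9, 8543867 to 8680752) encodes a cation channel opened by diacylglycerol that lets calcium in. It was at 19.1, 25.1 and 21.7 FPKM in WT 1 to WT 3 and at 23.3, 19.98 and 26.6 FPKM in HET 1 to HET 3, so that only HET 3 lay outside the wild-type range. Its log2 difference was 0.08 (SE 0.120, 95% interval -0.19 to 0.35), and the sign turned without WT 1 (-0.012) or without HET 3 (-0.017). It was 0.18 without WT 2 or without HET 2.

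A transcription factor and a pair of enzymes varied most from library to library. Glis3 (chromosome 19, 28258851 to 28680265) encodes a Krüppel-like zinc finger factor. It was at 3.86, 5.15 and 4.77 FPKM in WT 1 to WT 3 and at 5.47, 4.06 and 6.01 FPKM in HET 1 to HET 3. HET 1 and HET 3 were above the wild-type range and HET 2 within it, and the log2 difference was 0.14 (SE 0.140, 95% interval -0.18 to 0.45). It was 0.04 without WT 1 or without HET 3, 0.21 without WT 2 and 0.27 without HET 2. Tdo2 (chromosome 3, 81958412 to 81975728) encodes tryptophan 2,3-dioxygenase, which starts the kynurenine pathway. It was at 4.34, 6.74 and 5.72 FPKM in WT 1 to WT 3 and at 6.01, 3.35 and 5.80 FPKM in HET 1 to HET 3. HET 2 was below all wild-type libraries while HET 1 and HET 3 were inside their range, and WT 1 was next to lowest. The log2 difference of -0.14 (SE 0.207, 95% interval -0.62 to 0.34) turned to 0.082 without HET 2. It was -0.02 without WT 2, -0.24 without HET 3, -0.26 without HET 1 and -0.28 without WT 1. Lct (chromosome 1, 128284756 to 128328318) encodes lactase, an intestinal enzyme whose transcript is also a granule cell marker in the mouse. It was at 3.66, 3.79 and 5.43 FPKM in WT 1 to WT 3 and at 4.35, 4.08 and 5.93 FPKM in HET 1 to HET 3. HET 3 and WT 3 stood above the other 4 libraries, so that 1 high library of each genotype carried the range. Its log2 difference was 0.13 (SE 0.157, 95% interval -0.22 to 0.48), and it moved to -0.0053 without HET 3, 0.05 without WT 1, 0.07 without WT 2, 0.22 without HET 2 and 0.28 without WT 3.

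The last pair was the steadiest. Pdzd2 (chromosome 15, 12359711 to 12739968) encodes a protein with several PDZ domains, modules that bind the tails of membrane proteins. It was at 2.78, 2.46 and 2.39 FPKM in WT 1 to WT 3 and at 2.39, 2.47 and 2.40 FPKM in HET 1 to HET 3. WT 1 was highest and the other 5 libraries lay between 2.39 and 2.47 FPKM. Stxbp6 (chromosome 12, 44852484 to 45075118) encodes amisyn, a binding partner of syntaxin that restrains vesicle fusion. It was at 33.0, 31.2 and 30.8 FPKM in WT 1 to WT 3 and at 28.8, 30.9 and 29.8 FPKM in HET 1 to HET 3. HET 1 and HET 3 were below the wild-type range, and HET 2 was just above WT 3. The log2 differences were -0.05 (SE 0.105, 95% interval -0.28 to 0.18) for Pdzd2 and -0.09 (SE 0.0667, 95% interval -0.23 to 0.06) for Stxbp6. Without WT 1 they were -0.0031 for Pdzd2 and -0.06 for Stxbp6, and without WT 3 that of Pdzd2 was -0.08.

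Set side by side, 7 of the 10 log2 differences were below 0 and 3 above it (Trpc6, Glis3 and Lct), and none passed, with a limma adjusted p of 1.00 for each of the 10. The median over the members was -0.09, against a median of 0.00 over all genes tested, of which 50% were below 0. The median without HET 2 was -0.03. The groups did not overlap in 1 of the 10 members (Calb1, lower), against 8.52% of all genes tested in either direction, 4.39% in the direction lower in HET and 4.13% in the direction higher in HET. The smallest unadjusted limma p was 0.106, for Calb1. Every 95% interval of a member included 0. The widest was that of Tdo2 and the narrowest that of Stxbp6.

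**Figure D2:**
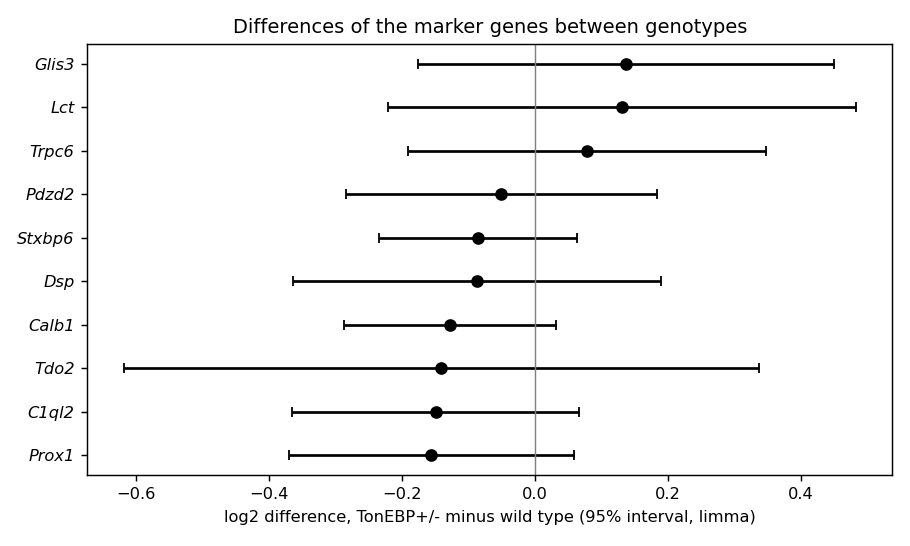
Log2 difference of each marker gene, TonEBP+/- minus wild type, on the scale log2(FPKM + 1), with 95% intervals from limma over 3 libraries a group and a grey line at 0. All 10 intervals include 0, with points from -0.16 (Prox1) to 0.14 (Glis3).

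The spread between libraries of the same genotype differed widely among the markers. Its size, the pooled SD of the log2 values within genotypes, was 0.333 for Tdo2, 0.248 for Lct, 0.213 for Glis3 and 0.192 for Trpc6. These values lay at percentiles 96.1, 91.3, 86.4 and 82.0 among all genes tested. For C1ql2 the SD was 0.134, for Prox1 0.129 and for Dsp 0.129, near the median of 0.117 over all genes tested. Calb1 (0.0755), Pdzd2 (0.0603) and Stxbp6 (0.0502) lay at percentiles 20.8, 11.2 and 6.26. The level alone did not order the members: Pdzd2 at 2.48 FPKM had the second smallest spread and Trpc6 at 22.6 FPKM the fourth largest. On this scale the added 1 understates the spread of low genes, such as Pdzd2 and Dsp. The ratio of the highest to the lowest FPKM was 1.46 for Dsp, 1.39 for Trpc6, 1.22 for Calb1 and 1.16 for Pdzd2.

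Counting error was set beside that spread. From the estimated fragments and the length of the longest coding transcript, counting alone gave an SD of 0.0941 for Tdo2, 0.0736 for Lct, 0.0647 for Glis3 and 0.0525 for Trpc6. The counting SD was 0.0427 for Prox1, 0.0806 for C1ql2, 0.0717 for Dsp and 0.0346 for Calb1. The measured SD was more than 3 times the counting SD in Tdo2, Lct, Glis3, Trpc6 and Prox1, and above it in C1ql2, Dsp and Calb1. For Pdzd2 the measured SD was below its counting SD of 0.0646, and for Stxbp6 it was above a counting SD of 0.0383. Fragments are not all independent molecules, so these values cover counting error only.

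**Figure D3:**
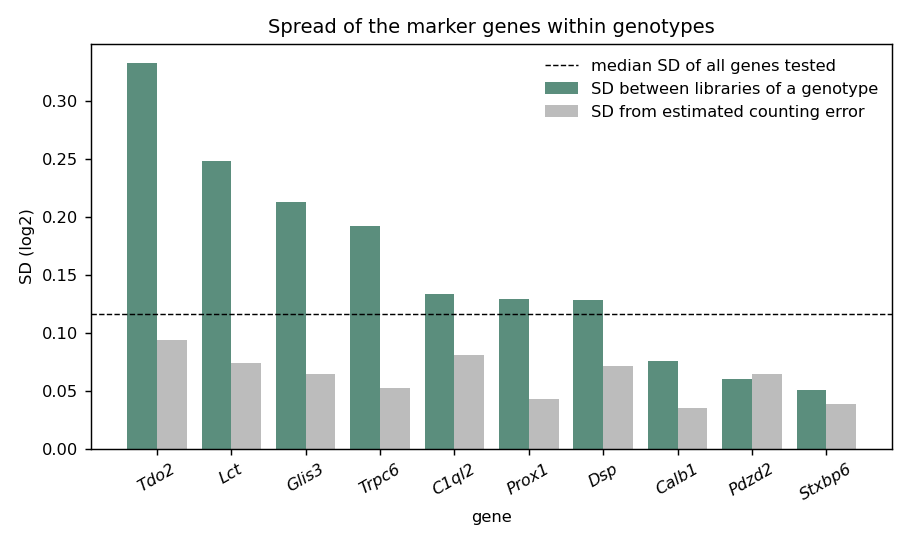
SD of the log2 level between libraries of a genotype (green bars, pooled over both genotypes) and SD that the estimated fragment counts alone would give (grey bars) for each marker gene, with a dashed line at 0.117, the median SD of all genes tested. Tdo2, Lct, Glis3 and Trpc6 stand furthest above the line and far above their grey bars, while Pdzd2 is below its own. C1ql2, Prox1 and Dsp lie just above the line.

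The libraries that were low or high were not the same for all members. HET 2 was the lowest of the 6 libraries for 5 of the 10 members (Prox1, C1ql2, Dsp, Calb1 and Tdo2), while it was the lowest for 19.0% of all genes tested. The same 5 members were below all 3 wild-type libraries in HET 2, against 26.5% of all genes, and none was above, against 24.8% of all genes. HET 3 was below the wild-type range for 4 members (Prox1, C1ql2, Calb1 and Stxbp6) and above it for 3 (Trpc6, Glis3 and Lct), against 22.0% and 24.7% of all genes. HET 1 was below it for 3 members (Calb1, Pdzd2 and Stxbp6) and above it for 1 (Glis3), against 24.4% and 21.8% of all genes. WT 1 was the highest library for C1ql2, Calb1, Pdzd2 and Stxbp6 and the lowest for Trpc6, Glis3 and Lct, 4 and 3 of the 10, while it was the highest for 17.1% and the lowest for 17.0% of all genes tested. The summed level of the 10 genes was 145.1 to 146.2 FPKM in wild type and 142.6, 128.3 and 144.6 FPKM in HET 1 to HET 3. That sum is weighted by abundant genes, Calb1 making up 27.3% to 32.1% of it.

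Markers of other cells in the dissected tissue moved between libraries as well. The choroid plexus is a tissue within the ventricles beside the hippocampus. The sum of 12 of its genes ranged from 287 to 2911 FPKM in wild type and from 100.4 to 3481 FPKM in HET, with none at 0. Most of that sum was Ttr, at 2801 FPKM in WT 2 and 3338 FPKM in HET 3. The 3 highest libraries of the sum were WT 2, HET 1 and HET 3. These were also the 3 highest for Trpc6, Glis3 and Tdo2, a coincidence seen in 10.8% of all genes tested. The part of choroid plexus tissue in the values of these 3 members was not tested. The sum of 10 oligodendrocyte lineage genes was 2965 FPKM in HET 2 and 3689.6 to 4170.3 FPKM in the other 5 libraries. The library that was low in granule cell markers was thus also low in this sum. Most of it was Mbp, at 2050 FPKM in HET 2. The precursor genes of the list, Pdgfra (10.4 FPKM) and Cspg4 (2.43 FPKM), were highest in HET 2. The part of oligodendrocyte lineage cells in the members' values was not tested. The 14 thalamus genes summed to 139 FPKM in HET 2 and 136 FPKM in HET 3, against 229 to 265 FPKM in the other 4. Prox1, C1ql2 and Calb1 were also lowest in HET 2 and HET 3, and Trpc6, Glis3 and Lct were above the wild-type range in HET 3. The 3 highest libraries of the thalamus list were WT 2, WT 3 and HET 1. They were the 3 highest for 0 of the 10 members, against 4.19% of all genes tested. The part of thalamic tissue was not tested either. No gene of the oligodendrocyte and thalamus lists was at 0 in any library. The median log2 deviation in HET 2, from the mean of all 6 libraries, was -0.18 for the members. It was -0.17 for CA3 and CA2 genes, -0.11 for hilar mossy cell genes and -0.10 for CA1 genes. It was 0.45 for meningeal, 0.19 for cortex and subiculum and 0.18 for interneuron genes. The CA1 median was also -0.10 in WT 2, and the mean deviation of the CA1 genes in HET 2 was 0.0044. The part of these cells in the members' values was not tested.

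**Figure D4:**
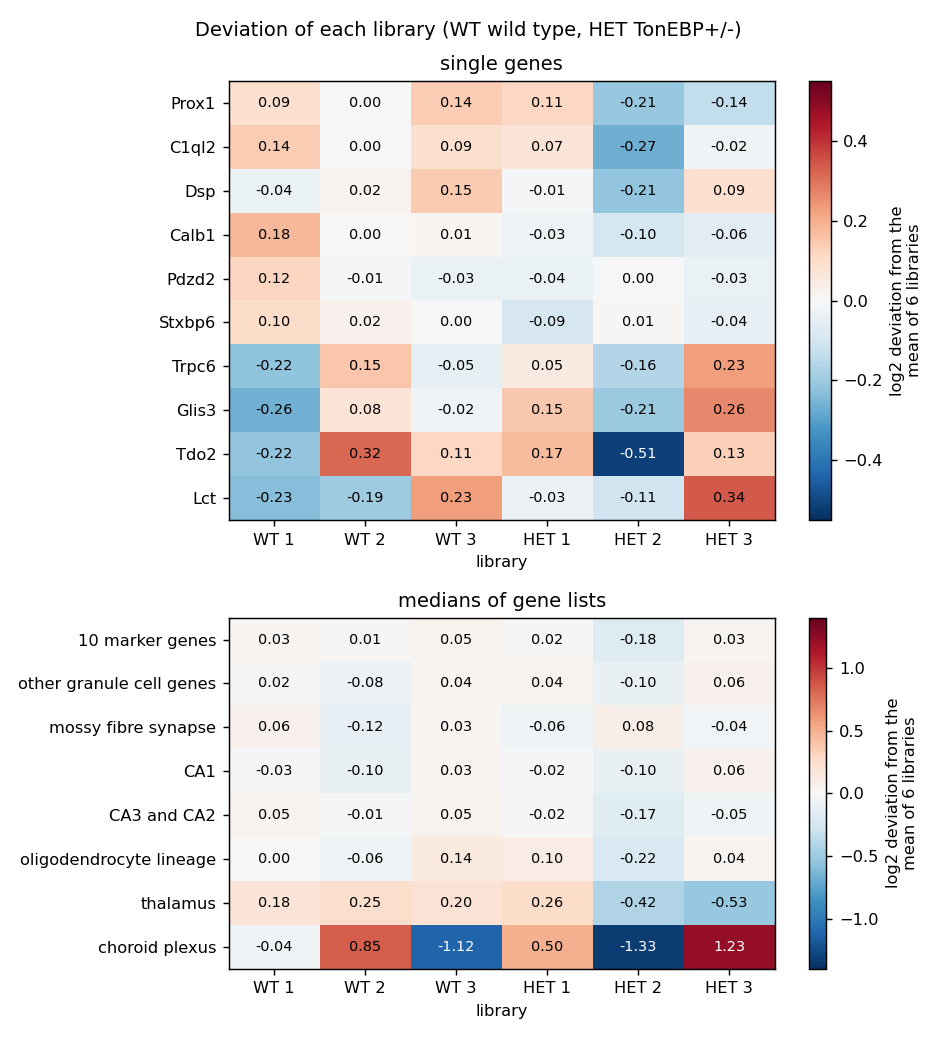
Log2 deviation of each of the 6 libraries (columns) from the mean of all 6, for the 10 marker genes (upper rows) and for the median of 8 gene lists (lower rows, wider colour scale); red is above and blue below the mean. HET 2 reads -0.21 for Prox1, -0.27 for C1ql2 and -0.51 for Tdo2, but 0.00 for Pdzd2 and 0.01 for Stxbp6.

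Other genes known from granule cells gave a wider view. Of 18 such genes, all tested, 7 had log2 differences above 0 and 11 below, 0 passed in either direction, the groups overlapped in all 18 (median -0.01). Gabrd, which encodes the delta subunit of extrasynaptic GABA-A receptors, was at 18.2, 20.4 and 16.8 FPKM in WT 1 to WT 3 and at 18.4, 14.3 and 12.6 FPKM in HET 1 to HET 3. As in Prox1, HET 2 and HET 3 were low and HET 1 was not, and the log2 difference was -0.28 (SE 0.128). The summed thalamus genes were low in the same pair of libraries, and their part in the value of Gabrd was not tested. Lrrtm4, a synaptic adhesion gene, had a log2 difference of 0.15 (SE 0.0855). The median deviation of the 18 genes was -0.10 in HET 2, against -0.18 for the 10 members, and -0.08 in WT 2.

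Genes of the mossy fibre synapse were taken from a list of 14, all tested, of which 2 (Synpr and C1ql3) also stand among the 18 above. Of these, 6 had log2 differences above 0 and 8 below, with a median of -0.0034, and 0 passed. Grik3, a kainate receptor gene, had a log2 difference of 0.21 (SE 0.138), and Nrxn3, which encodes the presynaptic partner of C1q-like proteins, one of -0.17 (SE 0.110). HET 2, the lowest library for C1ql2, was not low here: its median deviation was 0.08, the highest of the 6. The medians of the cortex and subiculum list (0.19) and of the interneuron list (0.18) were also highest in HET 2. The part of such cells in the mossy fibre list was not tested. C1ql3, a relative of C1ql2 at these synapses, was at 36.4 FPKM in HET 2, above its 5 other values, which ranged from 30.5 to 36.3 FPKM.

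Relatives and partners of single members were counted from fixed lists. Of 7 C1q-like and cerebellin genes, 5 were tested, 3 above and 2 below 0 (median 0.01), among them C1ql1 (0.15, SE 0.140) and Cbln4 (0.24, SE 0.294). Of 6 other TRPC channel genes, 4 were tested, 1 above and 3 below 0 (median -0.03), with Trpc4 at 0.08 (SE 0.119). Averaged over 6 libraries, Trpc6 at 22.6 FPKM was above Trpc1 (15.1), Trpc4 (12.1) and Trpc5 (8.56 FPKM), while Trpc7 and Trpc2 were below 1 FPKM. Desmosome partners of desmoplakin numbered 14, of which 4 were tested: Pkp4, Pkp2, Jup and Perp. The desmosomal cadherins Dsg1a, Dsg2, Dsg3, Dsc1, Dsc2 and Dsc3 were all under the filter. Among those tested, 2 were above and 2 below 0 (median 0.0019), with Perp at 0.22 (SE 0.252) and Pkp2 at 0.03 (SE 0.0885).

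The kynurenine pathway beside Tdo2 was represented by 11 genes, of which 2 were tested, Ccbl1 (0.07, SE 0.139) and Ccbl2 (0.0091, SE 0.169), both above 0 with a median of 0.04. Both encode transaminases that make kynurenic acid. The other 9, including Ido1 (mean 0.112 FPKM) and Kmo (0.384 FPKM), were under the filter, so Tdo2 at 5.33 FPKM was the most abundant gene of this pathway among those listed. Of 13 paralogues and further relatives, 9 were tested, 5 above and 4 below 0 (median 0.01). Calb2, which encodes calretinin, had a log2 difference of -0.17 (SE 0.122). In these 5 lists 0 genes passed in limma, at an adjusted p of 1.00 for each tested gene named.

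The genes that followed the members most closely were found by Pearson's r with the mean deviation of the 10 genes over the 6 libraries, among 8786 other genes at a mean of 5 FPKM or more, with unnamed gene models, pseudogenes and small RNAs set aside by their symbols. They were Laptm4b (r = 0.987), Evi2a (0.986), Arpin (0.984), Ermn (0.980) and Cpsf2 (0.973), and 86 of the 8786 had an r above 0.9. This is a description over 6 libraries of the same tissue, which differ in depth. Evi2a was at 28.7 FPKM in HET 2 and 38.5 to 46.2 FPKM in the other 5 libraries, and Ermn, a gene of myelinating oligodendrocytes, at 48.2 FPKM in HET 2 and 54.5 to 66.5 FPKM elsewhere.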

How the data were processed

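Each library had 1 deposited table of values on a log2 scale. Per the labels' protocols, Trizol RNA from hippocampus was made into strand-specific libraries, and per the submitters' processing notes reads were aligned with TopHat to mm10. No source used here names the annotation or the program behind the values. A gene was tested if 3 or more libraries reached 1 FPKM, which left 13122. The log2 values, as deposited, went into limma 3.58.1 (R 4.3.3) with genotype as the only term and the trend and robust settings. P-values were adjusted by Benjamini-Hochberg across the tested genes, with a threshold of 0.05 and 95% intervals. A single member was also compared by an exact permutation test where stated. In simulated data with the spread of these libraries, the procedure recovered 8.2% of changes of 0.3 in log2, 43.7% of changes of 0.5 and 85.7% of changes of 1. The differences of the members were all smaller than 0.3, so the lack of a passing member says little about changes of that size. Fragment numbers were estimated from the steps between low values of genes with 1 GENCODE transcript, of which 76.8% to 81.1% per library were within 0.15 of a whole step. Exon overlaps were read from the GENCODE annotation, and gene positions and promoter windows from RefSeq. Figures used matplotlib 3.10.9.

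The members and the other gene lists were chosen with earlier results of these data known. Named in the text by rule were all members, the 2 members of smallest p in each other list, and the 5 genes closest to the members' mean profile. A few genes that the rule names are not reported here. Gabrd's and C1ql3's single values, Dcx, the kynurenine, desmosome and TRPC levels and the 3 highest libraries of the choroid plexus list were chosen after values were seen. So were those of the thalamus list, the levels of Ttr and the lists compared by their median in HET 2. The fit was repeated after quantile normalization or median scaling, without the filter or with a mean level of 5 FPKM required, without the robust setting, with 0.1 added in place of 1, with the replicate number as a block, and with each library left out. Those planned for counts did not apply to log2 values.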

Additional observations from a re-analysis of the deposited data

How the results depend on the processing

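With all 6 libraries, 0 genes passed under quantile normalization, median scaling, no filter, the stricter filter, no robust option, a pseudocount of 0.1 and the replicate block. The median log2 difference of the members ranged from -0.13 (stricter filter, which leaves 6 members) to -0.09 (quantile normalization), and all 10 members kept their sign wherever they were tested. The labels do not say whether the library numbers pair the samples. Deviations from the genotype mean correlated at -0.21, -0.25 and -0.16 between same-numbered libraries and at 0.05 to 0.17 between the others. Such deviations sum to 0 over the 3 libraries of a genotype, so these values cannot show or exclude a pairing. The replicate block moved no count (0 genes, smallest limma adjusted p = 1.00). With 1 library left out, 0 to 8 genes passed, none of them a member. The 8 came without HET 1 (Adarb1, Inadl, Plcb4, Plekhg1, Prkcd, Scn4b, Shox2 and Slc17a6), and 1 each without WT 1 (Snord57), WT 2 (Rims1) and HET 3 (Rn45s). These names were chosen after their values were seen. Plekhg1, Prkcd, Shox2 and Slc17a6 stand in the thalamus list, which summed to 261 FPKM in HET 1, 139 FPKM in HET 2 and 136 FPKM in HET 3. The part of thalamic tissue in these genes was not tested. With 1 library left out, the members' median ranged from -0.11 to -0.03, the latter without HET 2. Groups did not overlap in 1 to 3 members (2 without WT 2, 3 without WT 3, HET 1 or HET 2), where 15.4% to 21.6% of all genes did not. The log2 difference of Trpc6 ranged from -0.017 (without HET 3) to 0.18, and was -0.012 without WT 1. That of Tdo2 ranged from -0.28 to 0.082, the latter without HET 2, and that of Lct from -0.0053, without HET 3, to 0.28. The cause was not tested. The smallest adjusted p of a member under any alternative was 0.724 (Prox1, without HET 1). Dsp and Tdo2 rest on the fewest fragments.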

Other observations

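Genes of other cells that lie beside or feed into the granule cell layer are given as values. Of 10 genes of newborn granule cells and progenitors, 5 were tested, 4 above and 1 below 0 (median log2 difference 0.10), and 0 passed. The neurogenesis gene Dcx, which encodes doublecortin of young neurons, was at 1.62 to 2.04 FPKM in wild type and 1.51 to 2.34 FPKM in HET, while Eomes, Igfbpl1, Draxin, Mki67 and Neurod4 were under the filter. Sox4, a transcription factor gene of young neurons, had a log2 difference of 0.15 (SE 0.114). Of 5 hilar mossy cell genes, 3 were tested, all below 0 (median -0.03), with Calb2 at -0.17 (SE 0.122) and Ajap1 at -0.03 (SE 0.0835). Calb2 also stands in the lists of newborn granule cell, thalamus and paralogue genes, so these lists are not separate for it. The CA1 list was split 5 above and 4 below 0 (median 0.01; Mpped1 0.16, SE 0.0680). In the CA3 and CA2 list 2 of 10 tested were above and 8 below (median -0.06; Pcp4 -0.63, SE 0.162, and Cacng5 -0.25, SE 0.151). No gene of these lists passed in limma (adjusted p = 1.00 for each named).

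The remaining cell type lists had no gene past the threshold either. Medians of the log2 difference were -0.05 for 13 interneuron genes (5 above 0, with Pvalb -0.44, SE 0.141, and Gad2 -0.22, SE 0.111), 0.02 for 11 astrocyte genes (6 above 0, with Gfap 0.23, SE 0.119, and Slc1a3 0.13, SE 0.0699) and -0.06 for 10 oligodendrocyte lineage genes (2 above 0, with Pdgfra 0.18, SE 0.0897, and Mog -0.17, SE 0.0878). They were -0.43 for 14 thalamus genes (1 above 0, with Tac2 0.35, SE 0.115, and Shox2 -0.59, SE 0.220), 0.21 for 8 cortex and subiculum genes (5 above 0, with Lamp5 0.26, SE 0.0862, and Fezf2 0.22, SE 0.104) and 0.20 for 9 meningeal genes (9 above 0, with Ogn 0.27, SE 0.154, and Fmod 0.44, SE 0.286). They were 0.11 for 12 choroid plexus genes (9 above 0, with Prlr 0.33, SE 0.926, and Sostdc1 0.31, SE 0.925) and -0.02 for 10 endothelial and mural genes (4 above 0, with Kdr 0.09, SE 0.119, and Pecam1 -0.05, SE 0.108).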
